A study of Homo sapiens with 18 samples.

Results

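Interferon-stimulated genes are the genes that cells transcribe at a higher rate once an interferon has bound its receptor. A list of 38 of them was followed through the study's RNA sequencing table, which holds 50119 gene rows, and each of the 38 had 1 row under its symbol. Their levels were described in 18 libraries that form 6 groups of 3, all made from an osteosarcoma line labelled Soas-2 (the study writes Saos-2) of genotype WT. The groups were D-2 (flat culture, 14 days), D-3 (cells embedded in Matrigel, 14 days), DP-3 (cells printed in a gel of methacrylated gelatin and alginate, 14 days), DP-3 day 1 (the same printed tissue after 1 day), IT (pieces of a tumor kept on Matrigel for 14 days) and FIT (tumors taken fresh from the animal). Tumors were raised in female BALB/c nude mice, aged 4 weeks, and were removed 2 weeks after the cells were injected. Nude mice lack a thymus and most T cells but keep natural killer cells and macrophages, so host cells could have entered FIT and IT. The labels do not say whether the 3 libraries of a group came from separate cultures or animals, and p-values then measure the spread between these libraries. Per the study's methods a tumor was split between culture and direct RNA extraction, so IT and FIT libraries may come from the same tumors, and the tests treat them as separate.

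Type I interferons bind the receptor IFNAR1/IFNAR2, and the kinases JAK1 and TYK2 then pass the signal on to the complex ISGF3, which holds STAT2 and IRF9. ISGF3 binds a DNA element called the interferon-stimulated response element (ISRE) in front of many antiviral genes, whose products sense foreign RNA, degrade it, block translation or hold back virus particles. Some of the same genes are also switched on directly by the factor IRF3 once double-stranded RNA has been sensed, with no receptor involved, and in tumors these genes are known as a sign of interferon or nucleic acid sensing.

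Because the members are known to share this element, their RefSeq promoter windows (assembly GRCh38.p14, 250 bases before to 50 after a start site) were searched for its core GAAANNGAA on both strands. Windows were found for 30 of the 38 members, 39 windows in all, and 25 of these windows in 20 members held a core, which is 64.1% against 8.11% of all 35116 windows. At least 2 cores were present in 15 member windows and in 0.701% of all windows, and overlapping cores were counted separately. A second motif, TTCNNNGAA, the gamma-activated site, was present in 11 member windows in 10 members and in 7.66% of all windows. The bases 170 to 51 before the start are shown for 6 members chosen after their values were seen, since they differ in how day 1 compared with the tumor, in the direction of transcription, with the ISRE cores of either strand in capitals.
IFIT1 (chr10:89392453-89392572, plus strand): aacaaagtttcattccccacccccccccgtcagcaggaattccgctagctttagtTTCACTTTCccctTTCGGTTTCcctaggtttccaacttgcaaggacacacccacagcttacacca
HERC5 (chr4:88456949-88457068, plus strand): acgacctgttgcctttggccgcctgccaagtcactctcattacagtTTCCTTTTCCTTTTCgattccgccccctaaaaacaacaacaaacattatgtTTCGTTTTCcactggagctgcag
ISG15 (chr1:1013327-1013446, plus strand): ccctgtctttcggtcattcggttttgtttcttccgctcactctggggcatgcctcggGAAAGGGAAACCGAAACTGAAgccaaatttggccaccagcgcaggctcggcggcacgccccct
IFI6 (chr1:27672243-27672362, minus strand): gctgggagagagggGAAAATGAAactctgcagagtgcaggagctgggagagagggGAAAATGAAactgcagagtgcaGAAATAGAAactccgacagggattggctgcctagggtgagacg
IFI27 (chr14:94110566-94110685, plus strand): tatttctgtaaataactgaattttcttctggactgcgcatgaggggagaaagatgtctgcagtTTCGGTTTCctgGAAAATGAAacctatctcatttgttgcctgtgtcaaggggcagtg
BST2 (chr19:17405681-17405800, minus strand): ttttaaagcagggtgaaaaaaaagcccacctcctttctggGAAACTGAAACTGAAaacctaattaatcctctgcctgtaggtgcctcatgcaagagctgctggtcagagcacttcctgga
The 6 stretches held 2 or 3 cores each. HERC5 was higher in DP-3 day 1 than in FIT, and IFI6, IFI27 and BST2 were lower. Of the other members that differed there, SAMD9, IFI44, OAS3 and GBP1 held a core in a window, the window of IRF9 held none, and IFIT2 and OASL had no window. A match of letters is not evidence that a protein binds there.

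The libraries held 50327345 to 79082786 estimated counts, except FIT replicate 3, which held 23721666. Levels are given as FPKM, fragments scaled to the length of the transcript and the size of the library. FIT replicate 3 stood apart: it was the lowest FIT library for 31 of the 38 members, and FIT replicate 1 was the highest for 34. The skeletal muscle myosin MYH2 reached 3.61 FPKM in FIT replicate 3 and the keratin KRT14 reached 10.4 FPKM in FIT replicate 1. The 6 listed skeletal muscle genes summed to 0.525 to 5.23 FPKM in FIT and 0 to 0.362 elsewhere, and the 4 keratinocyte genes to 21.5 to 41.3 in FIT and 16.2 to 27.6 elsewhere. Only 1 of the 6 muscle genes had a FIT mean of at least 1 FPKM. The muscle gene CKM was under 0.1 FPKM in every FIT library, and the keratin KRT1 in every library of the series. The 5 fibroblast genes summed to 37.3 to 48.1 FPKM in FIT and 8.46 to 30.2 elsewhere, with DCN under 0.1 in every library. The 4 endothelial genes summed to 3.46 to 5.57 FPKM in FIT, 4.12 to 5.93 in IT and 0.913 to 2.13 in the other groups, and both endothelial genes tested, PECAM1 and CDH5, were lower than FIT in D-2, D-3, DP-3 and DP-3 day 1. The other endothelial genes were silent in the tumor: KDR was under 0.1 FPKM in every library, and VWF in every library outside DP-3 day 1. The 7 macrophage genes summed to 56.3, 45.5 and 20.1 FPKM in FIT and 43.2 to 117 elsewhere, nearly all of it CD68, while PTPRC (the leukocyte marker CD45) and AIF1 were under 0.1 FPKM in every library. The 4 genes of natural killer and T cells, mostly NKG7, summed to 2.75, 1.91 and 0.00777 FPKM in FIT and 2.32, 1.01 and 0.416 in IT. Their sum was 0.551 to 1.18 at day 1, 0.0549 to 0.219 in D-2 and at most 0.407 in D-3 and DP-3, with CD3E and KLRD1 under 0.1 in every library. In FIT both lists were highest in replicate 1 and lowest in replicate 3, like most members. The keratinocyte list had the same order, at 41.3, 27.9 and 21.5 FPKM, and the fibroblast, endothelial, skeletal muscle and adipocyte lists did not. The natural killer and T cell list had its lowest group median in D-2. The macrophage list had its lowest in IT, 44.36 FPKM, beside 44.44 in D-2, 45.5 in FIT and 76.4 at day 1. Per the study's methods D-2, D-3 and both printed groups were grown from the line in vitro, without tumor tissue. The 4 adipocyte genes summed to 0.0418 to 0.178 FPKM in FIT and 0.168 to 8.71 elsewhere. The part of host cells in the members' levels was not tested, and in bulk RNA fewer cells of a type and less RNA per cell cannot be told apart. Among 6 osteoblast genes, RUNX2 lay between 0.61 and 2.41 FPKM, whereas SP7, IBSP and ALPL reached at most 0.0949, 0.0802 and 0.148 FPKM. The line is referred to by its label only.

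Most members were at their lowest in flat culture. The group mean FPKM was lowest in D-2 for 31 of the 38 members, and it was highest in FIT for 17, in DP-3 day 1 for 10, in D-3 for 7, in DP-3 for 3 and in IT for 1. Without FIT replicate 3, FIT was highest for 19 and DP-3 day 1 still for 10. The share of all genes with these orders was not computed, and on the FPKM scale the typical gene also lay lower in D-2. With limma on log2(FPKM + 0.1), the median log2 fold change of all genes tested was -0.189 for D-2 against FIT. Against D-2 it was 0.302 for D-3, 0.0378 for DP-3, 0.215 for IT and 0.346 for DP-3 day 1. The median of the 38 members, on the scale log2(FPKM + 0.1), was 0.72, 0.66 and 0.71 in the 3 D-2 libraries, under that of each other library. It was 2.19, 2.18 and 2.19 in DP-3 day 1, which were nearly equal, and 3.01, 2.52 and 1.5 in FIT, whose replicate 3 lay among the cultured groups. The 3D cultures of 14 days had D-3 at 1.64, 2.56 and 1.59, DP-3 at 1.64, 1.94 and 1.58, and IT at 1.64, 1.38 and 1.39. D-3 replicate 2 was the highest D-3 library for 30 members, and DP-3 replicate 3, in which mitochondrial genes took 9.22% of the counts, was the lowest DP-3 library for 26.

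**Figure D1:**
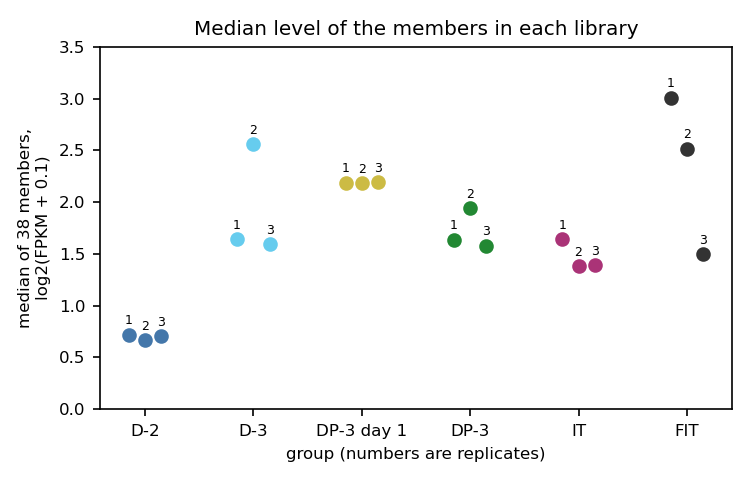
Median level of the 38 interferon-stimulated genes in each library, on the scale log2(FPKM + 0.1), with 1 point per library numbered by replicate. The 3 D-2 points lie lowest at 0.66 to 0.72, the 3 DP-3 day 1 points coincide near 2.19, and FIT spreads from 1.5 to 3.01.

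**Figure D2:**
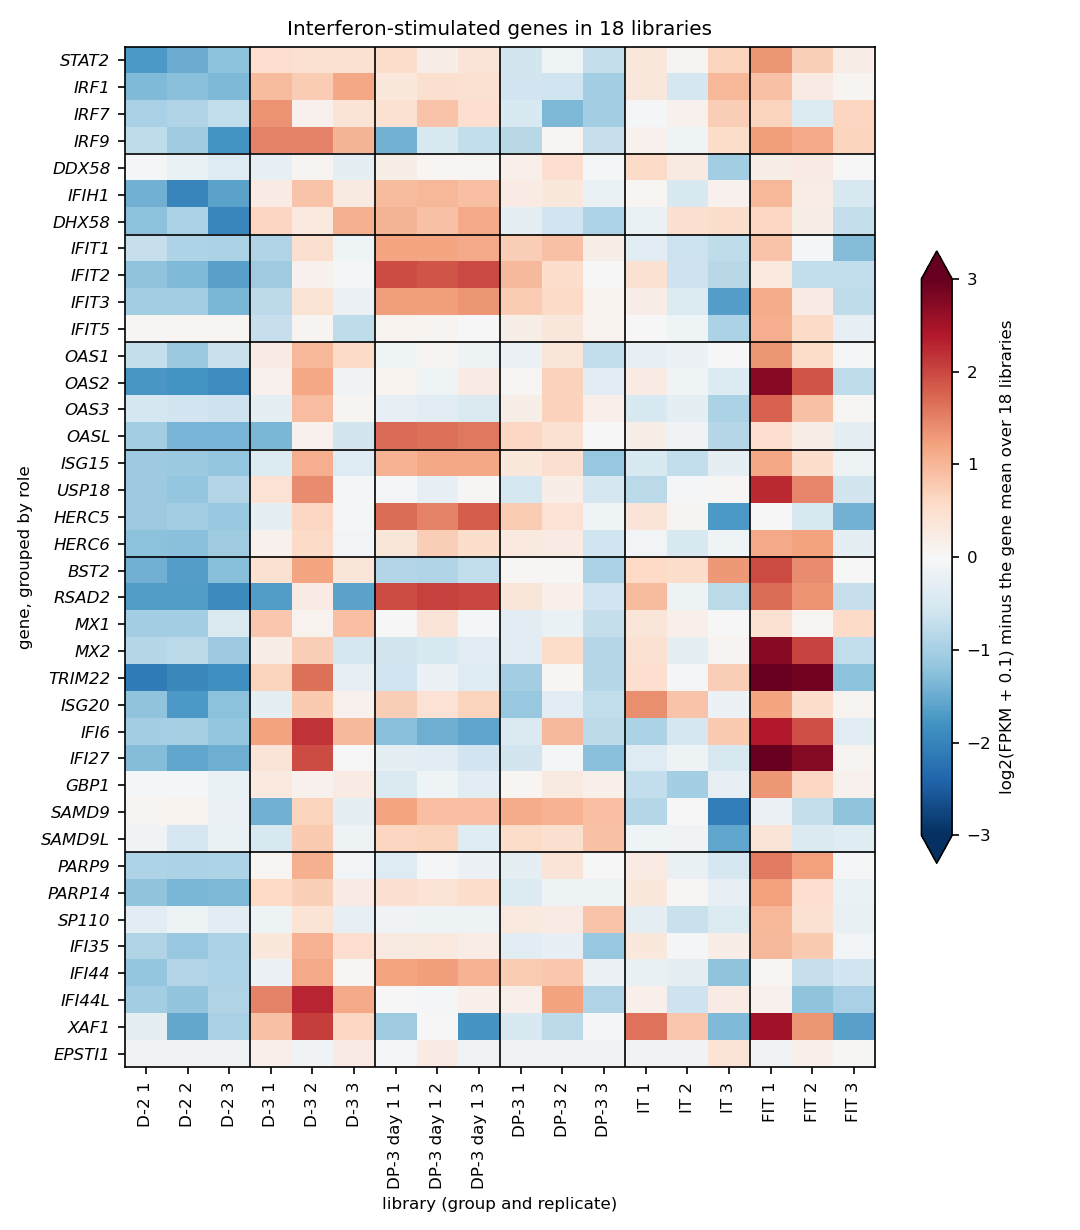
Level of each member (rows, grouped by role) in each library (columns), as log2(FPKM + 0.1) minus the gene's mean over 18 libraries, with the color scale cut at -3 and 3. The D-2 columns are blue for most genes, the DP-3 day 1 columns are red for IFIT1, IFIT2, IFIT3, OASL, HERC5, RSAD2 and IFI44, and FIT replicates 1 and 2 are red for TRIM22, IFI27, OAS2, MX2, USP18 and IFI6.

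Most members were lower in flat culture than in the fresh tumor. Of the 36 members tested, 23 were lower in D-2 than in FIT, where lower or higher means an adjusted p under 0.05 in edgeR's quasi-likelihood test and at least a 2-fold difference, while 10.8% of all genes tested were lower. The members' median log2 fold change was -1.65 and that of all genes -0.09. A gene was tested where 3 of the 6 libraries reached 0.1 FPKM, which EPSTI1 never did and which MX2, IRF7 or XAF1 missed in some comparisons with low groups, and the percentage over all genes carries the same filter. TRIM22, an antiviral E3 ubiquitin ligase, was at 0.0771, 0.097 and 0.111 FPKM in D-2 and at 11.2, 5.52 and 0.222 in FIT (log2 fold change -5.7 ± 1.22 (SE), adjusted p = 0.0135). IFI27, a small membrane protein of mitochondria, stood at 0.134, 0.0937 and 0.108 FPKM in D-2 against 5.13, 3.79 and 0.502 in FIT (log2 fold change -4.6 ± 0.80 (SE), adjusted p = 0.0071). All D-2 libraries of both genes lay below all FIT libraries, although FIT replicate 3 was far below the other 2 FIT libraries. The log2 fold changes of OAS2 and RSAD2 were -3.79 and -2.78. Without FIT replicate 3 the log2 fold change was -6.29 (adjusted p = 0.000543) for TRIM22 and -5.12 (adjusted p = 0.00031) for IFI27. The number lower was then 25, and it was 15 without D-2 replicate 1 or replicate 2.

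Against flat culture, each of the 3D cultures had higher members and none lower. In D-3, 23 of 36 members tested were higher, beside 14.6% of all genes, with a median log2 fold change of 1.33 against 0.11 over all genes. In DP-3 at day 14, 14 of 35 were higher, beside 0.722% of all genes, with medians of 1.01 and 0.03. In IT, 13 of 36 were higher, beside 9.86% of all genes, with medians of 0.95 and 0.10. The DP-3 count was the least steady: no member was called when any 1 D-2 library was left out, 7 were called without DP-3 replicate 1 and 8 without replicate 2. Every DP-3 library lay above every D-2 library in 28 of the 35 members, compared with 17.5% of all genes. The IT count was 5 to 8 when 1 D-2 library was left out. These 3 comparisons, and that of DP-3 day 1, share the D-2 libraries.

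The printed tissue at day 1 was compared with D-2 as well, a comparison added after the levels had been seen. Of 35 members tested, 19 were higher and none lower, beside 13.1% of all genes higher, with a median log2 fold change of 1.51 against 0.09 over all genes. RSAD2, or viperin, which makes a nucleotide that stops viral RNA synthesis, was at 17.4, 18.5 and 17.8 FPKM at day 1 and 1.29, 1.3 and 1.09 in D-2 (log2 fold change 3.55 ± 0.09 (SE), adjusted p = 1.76e-05). IFIT2, which binds viral RNA, was at 56.2, 53.7 and 56.8 FPKM against 6.12, 5.7 and 4.54 (log2 fold change 3.04 ± 0.12 (SE), adjusted p = 1.81e-05). HERC5 and OASL followed, at 2.67 ± 0.13 and 2.62 ± 0.11 (log2 fold change ± SE), and the groups did not overlap in any of the 4. The count was 18 to 21 whichever library was left out. The DP-3 day 1 libraries also had 24694 to 24791 genes at 0.1 FPKM or more, above the 17716 to 22322 of the other 15 libraries, and the bearing of this on the members was not tested.

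Against the tumor, the day 1 printed tissue split the members. Of 36 tested, 5 were higher (HERC5, IFIT2, SAMD9, IFI44 and OASL), beside 2.89% of all genes, and 6 were lower (IFI27, IFI6, BST2, IRF9, OAS3 and GBP1), beside 2.15%. HERC5, the ligase that attaches ISG15 to new proteins, was at 3.91, 3.41 and 4.31 FPKM at day 1 and 1.16, 0.813 and 0.37 in FIT (log2 fold change 2.18 ± 0.39 (SE), adjusted p = 0.0176). IFI6, a mitochondrial and endoplasmic reticulum protein that limits virus replication, was at 22.8, 19.7 and 18 FPKM at day 1 and 287, 209 and 43 in FIT (log2 fold change -3.27 ± 0.62 (SE), adjusted p = 0.0217). BST2, or tetherin, which holds budding virus at the cell surface, was at 24.8, 24.3 and 27.4 FPKM against 177, 123 and 45 (log2 fold change -2.28 ± 0.44 (SE), adjusted p = 0.0229). In each of these 3 genes all day 1 libraries lay on 1 side of all FIT libraries. Without FIT replicate 3, 5 were higher and 12 lower, and the log2 fold changes were 1.86 (adjusted p = 0.00427) for HERC5, -3.73 (adjusted p = 0.000457) for IFI6 and -2.67 (adjusted p = 0.000654) for BST2. Leaving out FIT replicate 2 left 4 calls in all, and leaving out a day 1 library left 3 or 4. In 6 of the 36 members tested in both comparisons (IFIT2, IFIT3, IFI44, OASL, RSAD2 and DHX58) every day 1 library lay above and every D-2 library below every FIT library, beside 3.77% of all genes tested in both.

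The printed tissue after 14 days was set against FIT in the same way. SAMD9, an antiviral factor that restrains poxvirus translation, was the 1 member higher of 37 tested (beside 1.66% of all genes), at 5.35, 5.11 and 4.65 FPKM in DP-3 and 2.15, 1.44 and 1 in FIT (log2 fold change 1.84 ± 0.26 (SE), adjusted p = 0.0138). Lower were 4 members, IFI27, IRF9, STAT2 and IRF1, beside 3.16% of all genes, with log2 fold changes of -3.26, -1.41, -1.15 and -1.05. The count turned on single libraries: without FIT replicate 3, 17 members were lower and 1 higher (SAMD9 at 1.60 (adjusted p = 0.00653)), without FIT replicate 1 a single call was left, and without FIT replicate 2 or DP-3 replicate 1 no member was called. A single call was also left without DP-3 replicate 2 or 3.

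In D-3 against FIT, 1 of 37 members was higher, IFI44L, a negative regulator of the antiviral response, and none was lower. It was at 2.85, 4.97 and 2.2 FPKM in D-3 and at 1.04, 0.35 and 0.432 in FIT (log2 fold change 2.4 ± 0.46 (SE), adjusted p = 0.0213), beside 4.29% of all genes higher. Without FIT replicate 3 the IFI44L value was 2.20 (adjusted p = 0.0516), and 5 other members were lower. Without D-3 replicate 1, D-3 replicate 3 or FIT replicate 2 no member was called, and without D-3 replicate 2 there were 2.

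No member passed the test between the cultured tumor pieces and the fresh tumor. In IT against FIT, edgeR called 0 of 37 members and 0% of all genes, with 15 members at an unadjusted p under 0.05. DESeq2 called 5 and limma 0, and edgeR called 0 whichever library was left out and 0 with the replicate number as a block. GBP1, a guanylate-binding GTPase that attacks pathogen membranes, was at 5.87, 4.8 and 8.28 FPKM in IT and 24.1, 15.1 and 10.7 in FIT, with no overlap (log2 fold change -1.39 ± 0.32 (SE), adjusted p = 0.208). IFI27 was at 0.339, 0.413 and 0.314 against 5.13, 3.79 and 0.502 (log2 fold change -3.1 ± 0.74 (SE), adjusted p = 0.208), and OAS3 at 5.12, 5.84 and 3.6 against 24, 13.1 and 7.17 (log2 fold change -1.59 ± 0.41 (SE), adjusted p = 0.22). Every IT library lay below every FIT library in 6 of the 37 members, beside 9.49% of all genes. IT against D-3 gave 0 of 37 members as well, beside 0.0461% of all genes called, with 7 at an unadjusted p under 0.05, 2 by DESeq2 and 0 by limma. The smallest p there belonged to IFI44L (log2 fold change -1.78 ± 0.38 (SE), adjusted p = 0.198), then to IRF9 and GBP1 with log2 fold changes of -1.09 and -0.78.

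The remaining pairs of 3D cultures were DP-3 against D-3 and IT against DP-3. In DP-3 against D-3, 3 of 37 members (8.11%) were lower, IRF1, IRF9 and XAF1, which is near the 7.15% of all genes. Without D-3 replicate 2 there were 11 calls, 7 higher and 4 lower, and without D-3 replicate 1 there was 1. In IT against DP-3, 1 of 37 was lower, IFIT1, beside 0.411% of all genes (log2 fold change -1.32 ± 0.20 (SE), adjusted p = 0.0344). No IFIT1 call was left when any 1 DP-3 library or IT replicate 1 was left out, and 3 members were called without IT replicate 3.

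From day 1 to day 14 of the printed tissue, 6 of 36 members were lower at day 14 (RSAD2, DHX58, ISG20, IFIT2, HERC5 and OASL), beside 5.76% of all genes, and 1, IFI6, was higher, beside 1.81%. RSAD2 went from 17.4, 18.5 and 17.8 FPKM to 5.68, 4.88 and 2.9 (log2 fold change -1.74 ± 0.21 (SE), adjusted p = 0.00311). DHX58, or LGP2, a partner of the RNA sensors, went from 1.5, 1.34 and 1.62 to 0.556, 0.43 and 0.31 FPKM (log2 fold change -1.51 ± 0.26 (SE), adjusted p = 0.00886). ISG20, an exonuclease that degrades viral RNA, went from 2.52, 2.01 and 2.41 to 0.61, 1.17 and 0.838 FPKM (log2 fold change -1.14 ± 0.24 (SE), adjusted p = 0.0177). In these 3 genes no day 14 library reached a day 1 library. IFI6 went the other way, from 22.8, 19.7 and 18 to 40.4, 106 and 31.4 FPKM (log2 fold change 1.8 ± 0.42 (SE), adjusted p = 0.0233), with DP-3 replicate 2 far above the other 2. The count of 7 ranged from 4 to 9 with 1 library left out, and was 4 without day 1 replicate 3.

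**Figure D3:**
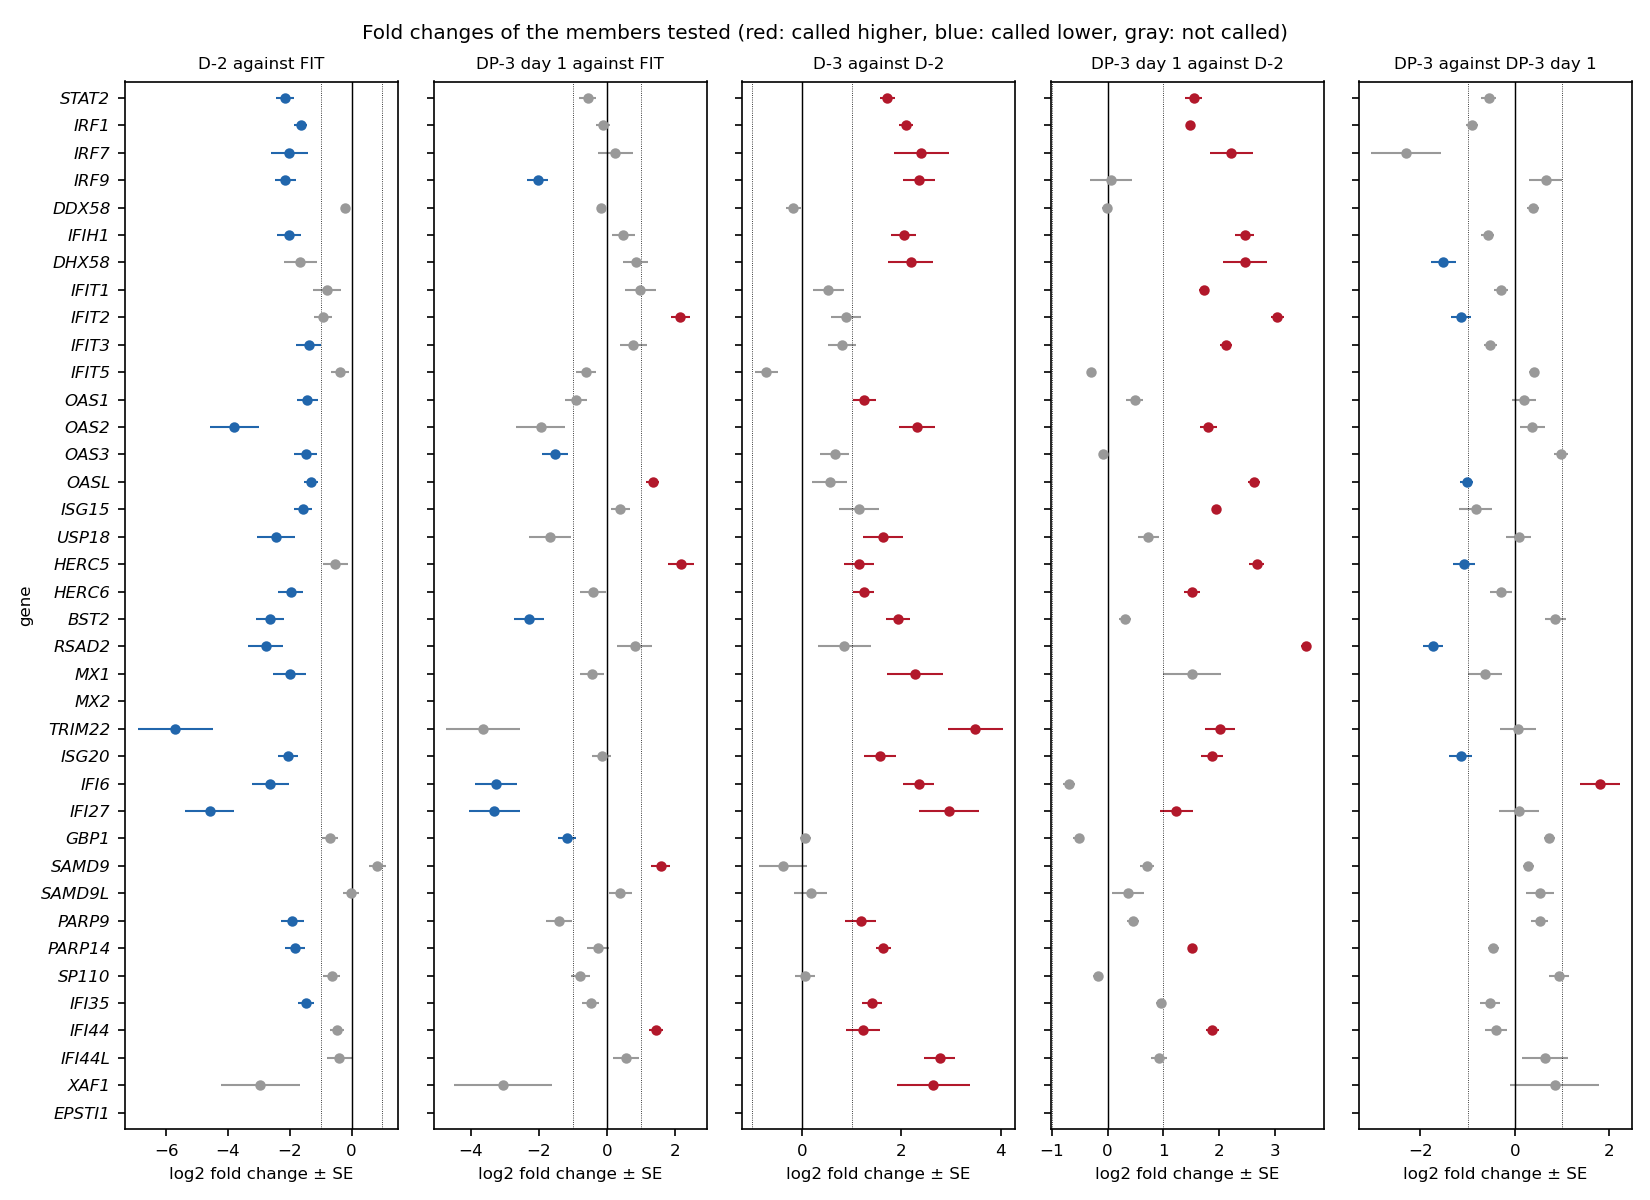
Log2 fold change (points, first group over second) with its SE (bars) for the members tested in 5 comparisons, from edgeR, red for higher, blue for lower and gray for not called. Blue fills the D-2 against FIT panel with 23 members, red fills D-3 against D-2 with 23 and DP-3 day 1 against D-2 with 19, and DP-3 day 1 against FIT holds both, 5 red and 6 blue.

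The members were then followed by role. Of the factors that carry the signal, STAT2 and IRF9, both parts of ISGF3, were low in D-2. STAT2 was at 2.6, 3.11 and 3.73 FPKM in D-2, 12.6, 12.2 and 12.2 in D-3 and 12.7, 9.93 and 11.6 at day 1. It was at 6, 8.06 and 5.37 in DP-3, 11.1, 9.34 and 14.2 in IT and 22.2, 14.6 and 10.2 in FIT, so each of the other 15 libraries lay above each D-2 library. IRF9 behaved differently at day 1, where its values overlapped those of flat culture: 1.14, 0.906 and 0.51 FPKM in D-2 and 0.69, 1.44 and 1.16 at day 1, against 5.82, 5.82 and 4.17 in D-3 and 4.93, 4.51 and 3.25 in FIT. In DP-3 it was 1.09, 2.09 and 1.2 and in IT 2.19, 1.82 and 3. DP-3 was lower than D-3 for IRF9 (log2 fold change -1.63 ± 0.29 (SE), adjusted p = 0.0139) and for IRF1 (log2 fold change -1.5 ± 0.18 (SE), adjusted p = 0.00547). IRF1, a transcription factor induced early by interferons, was at 1.45, 1.52 and 1.42 FPKM in D-2, 7.31, 6.43 and 8.53 in D-3 and 2.49, 2.46 and 1.81 in DP-3. STAT2, IRF1 and IRF9 were all higher than D-2 in D-3 and in IT. IRF7 was called higher there too, but at 0.0432, 0.0511 and 0.0696 FPKM every D-2 library was under the 0.1 FPKM filter. It was tested only through the D-3 or IT libraries, so these calls are partly set by the filter. IRF7, the main switch for further interferon genes, stayed under 1 FPKM in all 18 libraries.

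Of the 3 RNA sensors, IFIH1 and DHX58 were called in at least 1 comparison. DDX58 (RIG-I), which detects short double-stranded RNA ends, ranged from 5.37 to 16.7 FPKM over 18 libraries and was called in none of the 13 comparisons. IFIH1 (MDA5), which detects long double-stranded RNA, was at 0.879, 0.574 and 0.779 FPKM in D-2 and at 5.04, 5.23 and 4.93 at day 1 (log2 fold change 2.45 ± 0.17 (SE), adjusted p = 7.92e-05). It was also higher than D-2 in D-3, DP-3 and IT, by 2.04, 1.89 and 1.54 on the log2 scale. DHX58 was higher than D-2 in D-3, IT and DP-3 day 1.

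The IFIT proteins bind viral RNA and hold back its translation. Their 4 genes lie together on chromosome 10, between 89283694 (IFIT2) and 89420997 (the end of IFIT5) in the table's coordinates. IFIT2 was at 28.4, 20.8 and 14.1 FPKM in DP-3, 6.77, 15.7 and 13.7 in D-3 and 19.9, 9.35 and 8.01 in IT, and at 17.6, 8.5 and 8.53 in FIT. Its 3 day 1 values, given earlier, lay above all 15 other libraries. IFIT3 was at 9.33, 9.36 and 7.33 FPKM in D-2, 11.2, 25.6 and 17.1 in D-3 and 45.8, 46.4 and 48.3 at day 1. It was at 32.7, 28.6 and 20.7 in DP-3, 22.1, 14.5 and 6.08 in IT and 41.6, 22.8 and 11.4 in FIT, where replicate 1 came near the day 1 level. IFIT1 was at 6.59, 5.55 and 5.47 FPKM in D-2, 24.4, 24.4 and 23.5 at day 1 and 17.8, 19.6 and 12.1 in DP-3, while IT was at 8.56, 6.81 and 6.2. Both printed groups were higher than D-2 for IFIT1, IFIT2 and IFIT3, whereas in D-3 and IT no IFIT gene passed the test against D-2. This contrast of calls was not itself tested, and the DP-3 calls were lost when any 1 D-2 library was left out. Compared directly, DP-3 and D-3 differed in no IFIT gene by the test, and IT and DP-3 only in IFIT1. IFIT5 ranged from 2.85 to 12.1 FPKM and was called nowhere.

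The OAS proteins make the second messenger 2-5A, which activates RNase L, while OASL lacks this activity and aids RIG-I. OAS1, OAS2 and OAS3 lie side by side on chromosome 12 (112906783 to 113011723), and OASL is farther along. OAS2 was at 0.441, 0.425 and 0.388 FPKM in D-2 and 11.9, 6.6 and 0.965 in FIT, with FIT replicate 3 below the D-3 libraries (1.88, 3.96 and 1.57). All 5 other groups lay above D-2 in every library. OASL was at 5.87, 4.57 and 4.58 FPKM in D-2, 4.64, 13.3 and 8.33 in D-3 and 39.5, 38.4 and 36.7 at day 1. It was at 18.7, 16.6 and 12 in DP-3, 13.9, 11.3 and 6.67 in IT and 17.4, 14.1 and 9.99 in FIT. So the neighbours OAS1, OAS2 and OAS3 had their highest means in FIT, and OASL at day 1. OAS3 at day 1 was 5.87, 5.49 and 5.15 FPKM, lower than FIT (log2 fold change -1.53 ± 0.38 (SE), adjusted p = 0.0489), and OASL at day 1 was higher than FIT (log2 fold change 1.36 ± 0.19 (SE), adjusted p = 0.00882).

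ISG15 is a ubiquitin-like protein that HERC5 attaches to targets and USP18 removes. ISG15 had the highest mean of the 38 members, 86.3 FPKM over 18 libraries. It was at 34.2, 33.4 and 32.6 FPKM in D-2, 54.3, 155 and 55.2 in D-3 and 150, 162 and 162 at day 1. It was at 90.5, 102 and 32.9 in DP-3, 53.1, 43.3 and 60.1 in IT and 163, 105 and 64.9 in FIT, so the day 1 libraries lay close to FIT replicate 1, and DP-3 replicate 3 lay within the D-2 range. Day 1 was higher than D-2 (log2 fold change 1.93 ± 0.05 (SE), adjusted p = 1.76e-05) and D-2 lower than FIT (log2 fold change -1.58 ± 0.30 (SE), adjusted p = 0.00886). USP18, which also damps interferon signaling at the receptor, was highest in FIT at 10.3, 6.04 and 1.42 FPKM and stood at 2.08, 1.78 and 2.17 at day 1, with D-2 at 0.942, 0.894 and 1.1. HERC6 was at 0.972, 0.948 and 1.11 in D-2 and 5.44, 5.73 and 1.93 in FIT, where D-2 was lower (log2 fold change -1.97 ± 0.40 (SE), adjusted p = 0.0111). HERC5 and HERC6 are neighbours on chromosome 4, and only HERC5 differed between day 1 and FIT by the test, a contrast of 2 genes that was not itself tested.

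**Figure D4:**
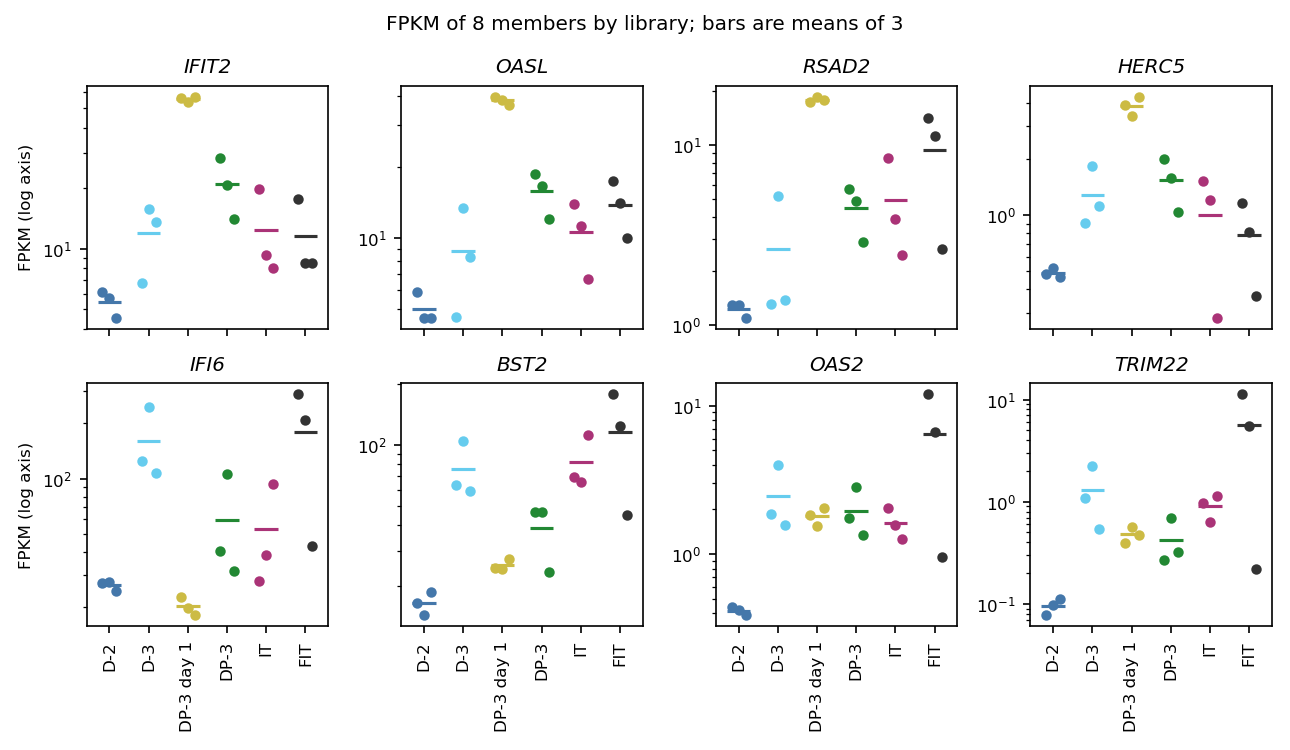
FPKM of 8 members in each library (points, 3 per group, log axes that differ between panels) with the group mean as a bar. IFIT2, OASL, RSAD2 and HERC5 (upper row) peak in DP-3 day 1, whereas IFI6, BST2, OAS2 and TRIM22 (lower row) have their highest means in FIT, where replicate 3 lies well below the other 2.

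Among the effectors at membranes, RNA and capsids, IFI6 and BST2 were the most abundant. IFI6 was at 27, 27.4 and 24.4 FPKM in D-2, 126, 246 and 107 in D-3 and 27.9, 38.5 and 93.9 in IT. With the day 1 values of 18 to 22.8, given above, IFI6 had its lowest group mean at day 1 rather than in D-2. BST2 was at 16.7, 14.4 and 18.7 FPKM in D-2, 63.1, 104 and 59.1 in D-3, 69.5, 65.8 and 112 in IT and 46.5, 46.5 and 23.6 in DP-3. IT was higher than D-2 for BST2 (log2 fold change 2.14 ± 0.24 (SE), adjusted p = 0.00752), for ISG20 (log2 fold change 2.22 ± 0.42 (SE), adjusted p = 0.0157) and for TRIM22 (log2 fold change 3.07 ± 0.35 (SE), adjusted p = 0.00752). RSAD2 was at 8.5, 3.89 and 2.46 FPKM in IT, 1.31, 5.21 and 1.37 in D-3 and 14.2, 11.2 and 2.66 in FIT. In D-3, replicates 1 and 3 were close to D-2 and replicate 2 was higher. MX1 and MX2, GTPases that trap viral capsids, were scarce: MX1 stayed under 1 FPKM in all libraries, and MX2 reached 1.51, 0.887 and 0.0445 in FIT and at most 0.305 elsewhere. GBP1 was at 9.45, 9.52 and 8.52 FPKM in D-2 and 7.23, 8.91 and 7.66 at day 1, one of the few members with its lowest mean, in IT, outside D-2. SAMD9 was lowest in IT at 1.29, 2.45 and 0.498 FPKM and high in both printed groups, with 5.67, 4.6 and 4.64 at day 1. SAMD9L, its neighbour on chromosome 7, ranged from 0.829 to 4.95 FPKM and was called nowhere.

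Of the remaining members, PARP9 and PARP14, of a family of ADP-ribosyltransferases, were both lower in D-2 than in FIT and higher than D-2 in D-3 and DP-3. PARP14 was at 2.25, 2.01 and 2.03 FPKM in D-2, 8.1, 8.75 and 6.27 in D-3 and 12.6, 7.54 and 4.6 in FIT, with every D-2 library below every other. IFI44 was at 2.69, 3.27 and 3.18 FPKM in D-2, 14.1, 14.8 and 12.8 at day 1 and 6.35, 3.74 and 4.06 in FIT, and its neighbour IFI44L was instead highest in D-3. XAF1, which promotes apoptosis, was at 0.59, 1.47 and 0.473 FPKM in D-3 and 0.174, 0.119 and 0.263 in DP-3 (log2 fold change -1.94 ± 0.53 (SE), adjusted p = 0.0437). Its FIT libraries ran from 0.0204 to 2.07 FPKM, over nearly the whole range of the series. SP110, a nuclear body protein, ranged from 1.26 to 4.21 FPKM and was called nowhere, and IFI35 was at 6.29, 5.39 and 6.14 in D-2 and 23.3, 20.5 and 11.2 in FIT (log2 fold change -1.47 ± 0.27 (SE), adjusted p = 0.00808). EPSTI1 was at most 0.0439 FPKM, was listed at 0 in most libraries, and was tested in no comparison.

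The pathway upstream was read from separate lists. Of 24 interferon and sensor genes, 21 were in the table. At day 1, 5 of the 15 tested (IFNB1, IFNL1, IFNE, TLR3 and TLR9) were higher than in D-2, beside 13.1% of all genes, and 2 of 15 (IFNB1 and TLR4) were higher than in FIT, beside 2.89%. IFNB1, IFNL1 and TLR9 had at most 12 estimated counts in every D-2 library, and IFNB1 also in every FIT library. In those comparisons they met the 0.1 FPKM filter only through the day 1 libraries, so these counts are partly set by the filter. Of the 12 tested in D-2 against FIT, 1 was higher, beside 3.83% of all genes, and 2 were lower, beside 10.8%. IFNB1, which encodes interferon beta, had 79, 51 and 49 estimated counts at day 1 (1.56, 1 and 0.979 FPKM) and 0 in all D-2 and all FIT libraries, where up to 12 counts, about 3 read pairs, could have gone undetected. It had 12, 0 and 0 counts in DP-3, 4, 12 and 43 in D-3 and 4, 0 and 27 in IT. IFNL1, or interferon lambda, was at 0.523, 0.512 and 0.621 FPKM at day 1, 0.133, 1.12 and 0.74 in D-3 and 0, 0.182 and 2.68 in IT, and at 0.187, 0 and 0 in FIT. IFNB1 was tested in these comparisons only because its day 1 libraries, where it was high, met the filter. Its calls against FIT and D-2 therefore add no support beyond the counts given. TLR4, a sensor of bacterial lipopolysaccharide, ran the other way from most members and was higher in D-2 than in FIT (log2 fold change 1.58 ± 0.14 (SE), adjusted p = 0.00169).

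The 17 receptor and signal transducer genes gave at most 2 calls of the 14 or 15 tested in any comparison. The 2 calls were in IT against DP-3, where JAK2 was higher, beside 1.09% of all genes, and IFNAR1 lower, beside 0.411%. IFNAR1 was at 5.17, 4.67 and 3.64 FPKM in D-2, 3.5, 5.9 and 6.43 at day 1 and 5.86, 5.88 and 6.54 in FIT. JAK2, used by the interferon gamma receptor, was lower in D-2 than in FIT (log2 fold change -1.52 ± 0.34 (SE), adjusted p = 0.0152) and higher in IT than in D-2 (log2 fold change 1.29 ± 0.17 (SE), adjusted p = 0.00851).

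A further 42 interferon-induced genes outside the list of 38 were tested alongside, 41 in each comparison. In D-2, 13 were lower than in FIT, beside 10.8% of all genes, and 1 was higher, beside 3.83%. Compared with D-2, 14 were higher in D-3 (14.6% of all genes), 5 in IT (9.86%) and 1 in DP-3 (0.722%), with none lower. At day 1, 10 were higher than in D-2 (13.1%) and 2 lower (4.13%), and 1 was higher (2.89%) and 2 lower (2.15%) than in FIT. The counts in IT and of those higher at day 1 than in FIT were thus near the share of all genes. IFITM1, which blocks virus entry, was at 4.35, 3.93 and 5.39 FPKM at day 1, 54.8, 65.8 and 42.9 in D-3 and 126, 76.4 and 11 in FIT, so that its order over these groups was that of IFI6 and BST2 (log2 fold change -4.06 ± 0.79 (SE), adjusted p = 0.023). CCL5, a chemokine that draws T cells, was at 14.4, 15.5 and 16.3 FPKM at day 1 and 4.32, 3.65 and 8.85 in FIT (log2 fold change 1.37 ± 0.32 (SE), adjusted p = 0.0393). CMPK2, a mitochondrial nucleotide kinase whose gene overlaps RSAD2 on the other strand, was at 0.285, 0.277 and 0.216 FPKM in D-2, 0.46, 0.563 and 0.804 at day 1 and 4.45, 3.5 and 0.776 in FIT (log2 fold change -3.34 ± 0.61 (SE), adjusted p = 0.0081). All RSAD2 values at day 1 lay above all FIT values, whereas those of CMPK2 overlapped FIT replicate 3 and lay below the other 2. The strand setting of the counting is not given in the sources used here, and for the 16 members that overlap a gene on the other strand, and the 4 that overlap one on the same strand, reads of both genes may be shared.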

How the data were processed

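RNA was sequenced in 18 libraries, 3 in each of 6 groups taken from the labels. Per the labels, the authors purified poly(A) RNA, made libraries with a kit that marks the second strand and sequenced them in pairs on an Illumina instrument. Per the submitters' processing notes they used cutadapt 1.9, HISAT2 2.0.4 and StringTie 1.3.4d. The genome build, the removal of mouse reads and the strand setting of counting are not given in the sources used here. The authors deposited FPKM and estimated counts per gene, and since low counts pile up at multiples of 4, a read pair was taken as 4 counts and 12 counts (3 read pairs) as the detection floor. The deposited counts were rounded to whole numbers and are not independent molecules, so the floor covers counting error only.

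Genes with at least 0.1 FPKM in 3 of the 6 libraries compared were tested with edgeR 4.0.16 (TMM scaling, quasi-likelihood test, R 4.3.3) on the 6 libraries of each comparison, with Benjamini-Hochberg adjustment over all genes tested. A gene was called at an adjusted p under 0.05 and at least a 2-fold difference. Alternatives were DESeq2 1.42.0, limma 3.58.1, other scaling and filters, a replicate block, a fit of all 18 libraries and leaving out each library. The scripts were tested on simulated data. Members and gene lists were chosen with earlier results of these data known, and 1 gene of the receptor list is not reported here. Genes given library by library were the called members with the largest fold change in each comparison, at a mean of at least 1 FPKM in a group (the smallest p where none was called), the 6 members with the highest mean level, and of the other lists up to 3 called genes per comparison, plus CMPK2. The comparison of DP-3 day 1 with D-2 was added after the levels were seen, and its named members followed the same rule. Other genes are described because their values complete a role, and they were chosen after their values were seen.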

Additional observations from a re-analysis of the deposited data

Results flagged for a closer look

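For 6 members, every DP-3 day 1 library lay above every FIT library while every D-2 library lay below, which held for 3.77% of all genes tested in both comparisons. The ratio of the mean FPKM at day 1 to that in D-2 was 14.6 for RSAD2, 10.2 for IFIT2, 7.63 for OASL, 6.95 for DHX58, 5.4 for IFIT3 and 4.56 for IFI44. With edgeR's scaling the log2 fold changes were 3.55, 3.04, 2.62, 2.46, 2.12 and 1.87 in the same order. The FPKM scale lay higher at day 1: the median log2 fold change of all genes was 0.346 with limma on FPKM and 0.095 with edgeR. Only OASL was called on both sides, higher at day 1 and lower in D-2 than in FIT. IFIT2 and IFI44 were called for day 1 alone, RSAD2 and IFIT3 for D-2 alone, and DHX58 on neither side. The members were picked by this pattern on the same libraries, so a test of day 1 against D-2 would restate the choice, and the difference between the sides was not tested.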

How the results depend on the processing

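The numbers of members called, in the order given in the report, depended on the tool mainly where few were called. DESeq2 called 2 members for D-3 against FIT, 12 for DP-3 against FIT, 5 for IT against FIT, 12 for DP-3 against D-3, 2 for IT against D-3 and 7 for IT against DP-3. A single fit of all 18 libraries gave 3 for D-3, 12 for DP-3 and 3 for IT against FIT, 6 for DP-3 against D-2, 7 for DP-3 against D-3 and 8 for IT against DP-3. With limma on log2(FPKM + 0.1) there were 3 for DP-3 against FIT, 9 for DP-3 against D-2 and 6 for DP-3 against D-3. With limma on log2(FPKM + 1), on which low genes move less, there were 2 for DP-3 against FIT, 3 for DP-3 against DP-3 day 1, 13 for D-3 against D-2, 6 for DP-3 against D-2, 7 for IT against D-2 and 0 for IT against DP-3. Without the filter there were 11 for DP-3 against FIT. Apart from the construction of the settings, the cause was not tested. All other counts stayed within 1.5 times, and no named value changed direction in any of the 13 comparisons. Of 328 values of named members under these settings, 288 stayed on the same side of the threshold, 32 fell short and 8 passed anew. With 1 library left out, 72 of 252 fell short and 180 stayed.

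With 1 library left out, the counts ranged from 15 to 25 for D-2 against FIT, 0 to 5 for D-3 against FIT, 0 to 18 for DP-3 against FIT, 3 to 17 for DP-3 day 1 against FIT, 4 to 9 for DP-3 against DP-3 day 1, 16 to 23 for D-3 against D-2, 0 to 16 for DP-3 against D-2, 5 to 14 for IT against D-2, 1 to 11 for DP-3 against D-3, 0 to 3 for IT against DP-3 and 18 to 21 for DP-3 day 1 against D-2, and stayed at 0 for IT against FIT and IT against D-3. Every group keeps at least 2 libraries in these fits.

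No source used here says that a replicate number marks a shared tumor, culture or day, although IT and FIT may share tumors. The correlation of deviations of libraries with the same number was under 0.1 for each pair in 12 of 13 comparisons, IT against FIT among them, and in IT against D-3 it was -0.149, 0.198 and 0.126. With the replicate number as a block, the pairing left 1 call for DP-3 against FIT, 7 for DP-3 day 1 against FIT, 3 for DP-3 against D-2, 8 for IT against D-2 and 0 for IT against DP-3, with the other counts within 1.5 times. Median-of-ratios scaling moved the median of all genes by at most 0.0162 on the log2 scale, and limma on FPKM by at most 0.251, in DP-3 day 1 against D-2. Detection was limited at 0.152 to 0.506 CPM, highest in FIT replicate 3.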
